A study of Saccharomyces cerevisiae BY4741 with 40 samples.

Results

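The genes of amino acid biosynthesis were followed through their transcription start site clusters (TSSCs), groups of nearby 5′-ends of capped RNA, in 2 sequencing experiments with budding yeast. A TSSC was taken when it was assigned to a gene named ARG, HIS, LEU, ILV, LYS, MET, TRP, ARO, THR or HOM followed by a number, and when it was of class O (the start of an mRNA), A (antisense within the gene) or B (sense within the gene). This rule used names alone and gave 373 of 39519 TSSCs: 149 of 17812 in the RRP6 experiment (83 O, 15 A and 51 B) and 224 of 21707 in the SET2 experiment (84 O, 40 A and 100 B). They belong to 74 genes, the same in both experiments, of which 72 had an O-TSSC. ARO8 and LEU2 had none. ARG5,6 falls outside the name rule because of its comma and is given with the other pathway genes.

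The study asked which transcripts are removed by nonsense-mediated mRNA decay (NMD) and how far transcription starts in other places than the promoter of an mRNA. Poly(A)+ RNA from cells grown to mid-exponential phase in YPD, a rich medium that supplies amino acids, was converted with tobacco acid pyrophosphatase so that capped 5′-ends could be sequenced. The RRP6 experiment compared wild-type with upf1∆, rrp6∆ and upf1∆rrp6∆ cells and the SET2 experiment compared wild-type with upf1∆, set2∆ and upf1∆set2∆ cells, with 3 libraries per genotype in each. Upf1 is the central helicase of NMD, Rrp6 is a nuclease of the nuclear exosome, and Set2 is the methyltransferase of histone H3 that acts behind elongating RNA polymerase. All strains, wild-type included, carry can1_delta in BY4741, a MAT a laboratory strain that the methods give as his3∆1, leu2∆0, met15∆0 and ura3∆0, so all of them lack functional copies of genes of the very pathways described here. By the labels, UPF1 was replaced with KANMX6 in upf1∆ and in upf1∆rrp6∆ and with HIS3MX6 in upf1∆set2∆, RRP6 with hphMX6 in rrp6∆ and HPHMX6 in upf1∆rrp6∆, and SET2 with KANMX6. For both upf1∆ and upf1∆rrp6∆ the methods list a strain with KANMX6 and a strain with HIS3MX6 at UPF1. A marker that complements histidine auxotrophy therefore cannot be told apart from the loss of Upf1 for the histidine genes.

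In yeast, each amino acid is built by its own chain of enzymes, and the genes of all chains share a general regulator, Gcn4, which binds the core TGACTC and is made mainly when amino acids run short. Single pathways add their own control: Arg80 and Arg81 act on arginine genes, Met4 with Cbf1, Met28, Met31 and Met32 on sulfur genes, Leu3 on leucine genes, Lys14 on lysine genes and Aro80 on the breakdown of aromatic amino acids. NMD removes mRNAs whose ribosomes stop early, for example at a short open reading frame (ORF) that opens with an ATG upstream of the gene's own start codon. The place where transcription starts decides whether such an upstream ATG is in the mRNA at all.

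The deposited tables give 1 value per genotype, in reads normalised by the authors over the 3 libraries, so no spread between libraries and no p-value was computed from them, and the significance values that the authors give for their own contrasts were not used. Fold changes are log2 ratios after adding a pseudocount of 1, and a TSSC is counted as higher or lower when the ratio is more than 2-fold. The sum of all values was between 3914205 and 4985459 per genotype, and the depth of a single library is unknown. The only repeated comparison, upf1∆ over wild-type, was made in both experiments: over 79 pairs of overlapping O-TSSCs of these genes the 2 log2 ratios differed with an SD of 0.16, against 0.26 over all 5606 pairs, and none of the 79 differed by more than 1. The study names 1 wild-type library of each experiment as biologically independent of the other. It also speaks of 3 biological replicates where it defines the TSSCs of the RRP6 experiment. For the remaining libraries of the SET2 experiment separate cultures are not stated, so this spread may be partly technical. Wild-type set against wild-type after centring gave an SD of 0.37 over the 79 pairs, and 2 TSSCs, at ARO80 and at MET1 upstream, were more than 2-fold lower in the SET2 experiment. The deletion of RRP6 checked itself, with 86, 88, 2 and 7 reads of RRP6 in wild-type, upf1∆, rrp6∆ and double mutant cells. SET2 had 40, 26, 6 and 13 in wild-type, upf1∆, set2∆ and upf1∆set2∆. From upf1∆ to upf1∆set2∆ its fall was less than 2-fold with the pseudocount, so SET2 is the weaker check. The TSSCs assigned to UPF1 (NAM7) and CAN1 lie before the start codon or past the end of the deleted ORFs and check nothing. No TSSC of these tables carries the names MET15, MET17 or URA3, and the only TSSC of LEU2 was a B-TSSC past the ORF.

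The promoters of these genes hold the binding words of their regulators more often than other promoters. In the 250 bases before the ATG, on either strand, TGACTC stood in 33 of 74 promoters (44.6%) against 6.56% of 5318 ORFs with an mRNA start in the tables or among these genes, and the longer TGACTCA, which contains it, in 29.7% against 2.29%. The word was in 6 of 7 histidine, 4 of 6 arginine, 5 of 9 branched-chain and 0 of 5 methionine synthesis promoters. CACGTG, the palindrome bound by Cbf1, stood in 10 of 74 (13.5%, against 2.84% of all), 5 of them among the 8 sulfate assimilation genes, and TGTGGC, a word of Met31 and Met32, in 11 of 74 (14.9%, against 6.26%). These are matches of letters, not measured binding. The sites below, from the R64 genome, are examples from genes described further on that hold a word, with the word, or its reverse complement, in capitals. Other genes with large differences, among them ARG1, ARG3, MET3, LYS9 and MET1, held none of these words in the 250 bases.
ARG4 (Gcn4 word, chrVIII:141568-141589, minus strand): tagatgaaTGACTCactttttg
ARG8 (Gcn4 word, chrXV:58571-58592, plus strand): tcgctatgTGACTCacttaaag
MET5 (Gcn4 word, chrX:683485-683506, minus strand): gaaaatttGAGTCAtggagatg
MET16 (Gcn4 word, chrXVI:877767-877788, minus strand): ccacaacaTGACTCagcaaatc
MET16 (Cbf1 word, chrXVI:877797-877818, minus strand): catcatttCACGTGgctagtaa
MET14 (Cbf1 word, chrXI:439600-439621, minus strand): actaatttCACGTGatcaatat
MET10 (Cbf1 word, chrVI:213073-213094, plus strand): tatagaagCACGTGaccacaat
The word of Leu3, CCGG on both sides of 2 free bases, was found in 2 of the 74 promoters, those of LEU1 and LEU2, against 0.132% of all.
LEU1 (chrVII:478852-478877, minus strand): cgaaaattCCGGGACCGGcgaaattt

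In wild-type cells the O-TSSCs of amino acid genes were well filled. Their median was 239 normalised reads in the RRP6 experiment against 132 for all O-TSSCs, and 177 against 92 in the SET2 experiment. They made up 1.00% of all O reads in wild-type and 1.13% in upf1∆, with 1.29% in rrp6∆ and 1.23% in the double mutant, and in the SET2 experiment 0.957% in wild-type and 1.04% in upf1∆, with 0.830% in set2∆ and 0.873% in the double mutant. The branched-chain genes ILV5 (3533 and 2754 reads in the 2 experiments) and ILV6 (3440 and 3339) led in wild-type. ILV5 encodes the reductoisomerase shared by isoleucine, valine and leucine synthesis and ILV6 the regulatory subunit of the first common enzyme. ARO2, the chorismate synthase, had 2691 and 2095 reads, MET6, the methionine synthase, 2696 and 2346, and HIS4, which carries several steps of histidine synthesis, 2419 and 1966. At the other end, the regulators ARO80 (13 and 3), LYS14 (26 and 18), MET4 (28 and 27) and ARG81 (38 and 29) were among the least filled main TSSCs.

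Few of these mRNAs were higher without Upf1. In the RRP6 experiment 7 of 83 O-TSSCs were above wild-type in upf1∆ by more than 2-fold, where 13.5% of all O-TSSCs were, and 0 were lower, where 0.624% of all were. In the SET2 experiment 9 of 84 were higher (13.7% of all) and 1 was lower (0.685% of all), an internal TSSC of MET28 with 8 and 3 reads. The medians were 0.19 and 0.25 on the log2 scale, against 0.07 and 0.12 for all O-TSSCs. The 6 higher in both experiments were upstream TSSCs of LYS9 and MET1, the main TSSCs of ARG3, ARG80 and ARG81, and an internal TSSC of LEU1.

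**Figure D1:**
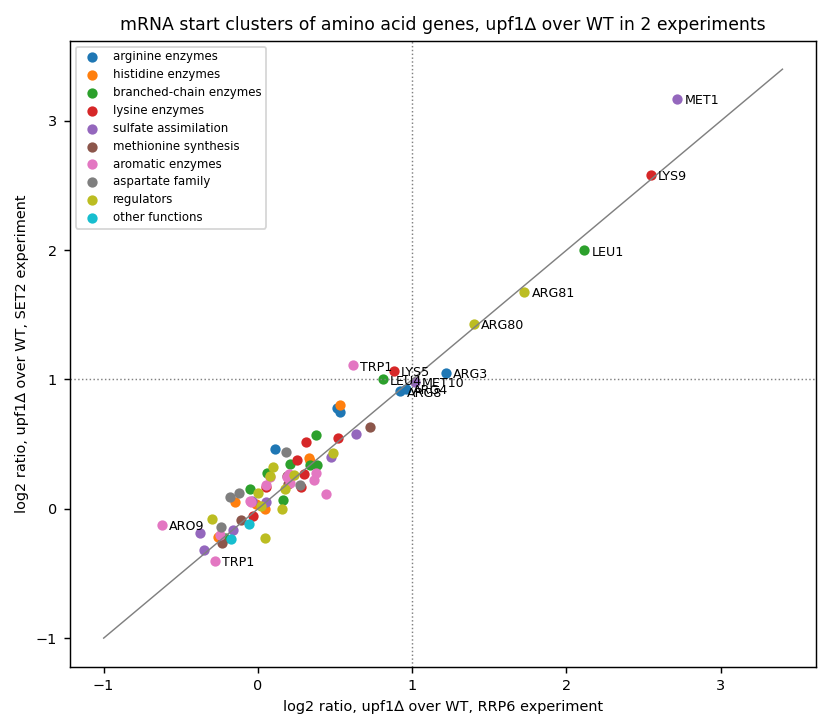
Log2 ratio of upf1∆ over wild-type for 79 O-TSSCs of amino acid genes, in the RRP6 experiment (x axis) and the SET2 experiment (y axis), coloured by pathway, with the line of equality in grey and dotted lines at a 2-fold ratio. The points lie along the line (SD of the difference 0.16), and 6 of them, at MET1, LYS9, LEU1, ARG81, ARG80 and ARG3, are past the dotted lines on both axes.

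The largest ratios belonged to second start sites far upstream of the ORF. LYS9, the saccharopine dehydrogenase of the next to last step of lysine synthesis, had a main TSSC 128 to 30 nt before the ATG and another 617 to 390 nt before it. The upstream TSSC had 128 reads in wild-type and 752 in upf1∆ in the RRP6 experiment, and 92 and 556 in the SET2 experiment, log2 ratios of 2.55 and 2.58. The main TSSC of the same gene had 799 and 828, then 498 and 559. Only the far start moved by more than 2-fold. MET1, which makes the siroheme cofactor of sulfite reductase, had 18 and 124 reads, then 5 and 53, at a TSSC that begins 180 nt before the ATG, while the TSSC nearer the ATG had 39 and 38 in the RRP6 experiment. TRP1, the phosphoribosylanthranilate isomerase, had 363 and 557 reads, then 145 and 314, at a TSSC that begins 234 nt before the ATG (log2 ratios 0.62 and 1.11), and fewer in upf1∆ at the nearer one, with 176 and 145, then 126 and 95.

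The far TSSCs of LYS9 and MET1 place short ORFs before the start codon. Counted from its last base, the LYS9 transcript of the RRP6 experiment held 7 upstream ATGs, all followed by a stop before the ORF's own ATG. The short ORFs printed here, with start and stop in capitals, are 3 of those 7 and 1 of MET1, whose ATG lies 149 nt before the start codon, after the TSSC of the SET2 experiment and inside the longer one of the RRP6 experiment.
LYS9 (6 codons, chrXIV:715716-715736, minus strand): ATGatctcttgtttctttTGA
LYS9 (5 codons, chrXIV:715481-715498, minus strand): ATGgtatataaaccgTAG
LYS9 (7 codons, chrXIV:715440-715463, minus strand): ATGggaaggatccttaggcagTAG
MET1 (6 codons, chrXI:571463-571483, plus strand): ATGcttaagtcaaaaaaaTGA

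An upstream ATG did not always go with a higher value in upf1∆. Counted from the last base of the TSSC, 9 of 83 O-TSSCs (10.8%) had one in the RRP6 experiment, against 12.3% of all O-TSSCs, and 2 of the 9 were higher in upf1∆, where 48.8% of all O-TSSCs with an upstream ATG and 4.46% of those with none were. In the SET2 experiment 2 of 8 were higher, against 45.6% and 4.69%. MET32, a zinc finger regulator of sulfur genes, has 5 upstream ATGs and had 75 and 85 reads, then 63 and 70. The upstream TSSCs of MET28 (42 and 47, then 36 and 36) and ARO9 (19 and 12, then 11 and 10) and the TSSC of ARO80 (13 and 14, then 3 and 4) also carry at least 1. Of the 2 upstream ATGs of MET28, 1 lies 63 nt before the start codon, in frame with the ORF and with no stop between them. MET28 is a leucine zipper cofactor of Met4 and ARO9 an aromatic aminotransferase. The remaining ones were upstream TSSCs of LEU4, with 95 and 167, then 67 and 135, and of MET3, with 3 and 6, and 2 TSSCs with at most 2 reads, 1 of LEU4 and 1 of MET28. Short ORFs of these 3 genes with similar values in both genotypes are shown for comparison with those of LYS9.
MET32 (5 codons, chrIV:964618-964635, minus strand): ATGccaagaatttgtTAA
MET28 (6 codons, chrIX:384181-384201, minus strand): ATGactaagaacacgaggTAA
ARO80 (4 codons, chrIV:1311994-1312008, plus strand): ATGatccacgcaTAA

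Other TSSCs that were higher in upf1∆ reach past the start codon in the RRP6 experiment, so that some of their mRNAs lack it. ARG81, the zinc cluster sensor of arginine, had 38 and 128 reads, then 29 and 95 (log2 ratios 1.73 and 1.68), at a TSSC that runs from 31 nt before to 115 nt after the ATG in the RRP6 experiment. Its MADS-box partner ARG80 had 119 and 316, then 136 and 368. ARG3, the ornithine carbamoyltransferase, had 63 and 148, then 80 and 167. In the SET2 experiment this O-TSSC of ARG3 ended 14 nt before the ATG and was still higher. The part inside the ORF is there a B-TSSC of its own with 1 and 17, so most of the added reads kept the start codon. LEU1, the isopropylmalate isomerase, had 5 and 25, then 3 and 15, at a single base 18 nt inside the ORF, and 1973 and 2052, then 912 and 1103, at its main start. In each experiment 23 O-TSSCs ended inside the ORF (27.7% and 27.4%, against 40.2% and 38.1% of all O-TSSCs). Of these, 4 and 5 were higher in upf1∆ (17.4% and 21.7%), where 13.3% and 15.0% of all O-TSSCs that end inside the ORF were. In the 4 genes named here, at the TSSC of the RRP6 experiment, the first ATG after its last base is out of frame, shown in capitals with the bases around it.
ARG81 (first ATG 119 nt into the ORF, chrXIII:76907-76933, minus strand): ccactgccaacgATGtgaaaagtctaa
ARG80 (58 nt into the ORF, chrXIII:352649-352675, plus strand): caattaccggcgATGttgaaactaatg
ARG3 (109 nt into the ORF, chrX:268896-268922, plus strand): aacatttcaagaATGtttttaaagcaa
LEU1 (52 nt into the ORF, chrVII:478586-478612, minus strand): ataaggtttttgATGcacatgttgtcc

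The arginine enzymes stood out among the main TSSCs for a smaller difference that all of them showed. All 6 were above wild-type in upf1∆ in both experiments, with medians of 0.72 and 0.84, although 1 of 6 passed 2-fold in each. ARG4, the argininosuccinate lyase, had 761 and 1480 reads, then 797 and 1518. ARG8, the acetylornithine aminotransferase, had 354 and 670, then 323 and 607. ARG1, the argininosuccinate synthase, had 603 and 862, then 606 and 1041, and ARG2, the first enzyme, 26 and 38, then 18 and 31. ARG7, the ornithine acetyltransferase, had the lowest log2 ratios of the 6, 0.11 and 0.46. Outside the name rule, the ornithine carrier ORT1 had 300 and 648, then 212 and 451, while ARG5,6, the kinase and reductase of the same chain, had 197 and 251, then 182 and 204.

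The enzymes of other pathways were closer to wild-type. Histidine enzymes had medians of 0.05 in both experiments, and HIS3, the his3∆1 locus, had 1945 and 2813 reads, then 1876 and 3265 (log2 ratios 0.53 and 0.80), with the marker limit given above. Lysine enzymes had medians of 0.30 and 0.38, and LYS5, which activates Lys2, had 55 and 102 reads, then 50 and 106. The aspartate family (HOM2, HOM3, HOM6, THR1 and THR4) had medians of -0.12 and 0.12, the aromatic enzymes 0.13 and 0.19, and sulfate assimilation 0.05 and 0.06, with MET10, a subunit of sulfite reductase, at 136 and 276, then 118 and 234. GCN4 itself, whose mRNA carries well known upstream ORFs, had 3224 and 5119, then 3032 and 4750.

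In rrp6∆ the main starts of several sulfate assimilation genes had fewer reads, and the upstream starts of MET5 and MET3 had more. Of 83 O-TSSCs, 7 were higher in rrp6∆ than in wild-type (4.29% of all O-TSSCs were) and 4 were lower (2.7% of all). The 4 lower were the main TSSCs of MET3, MET5, MET14 and MET1. With all O-TSSCs of a gene summed, only MET14 stayed lower by more than 2-fold. The summed reads of wild-type and rrp6∆ were 53 and 28 at MET3, 57 and 48 at MET1 and 317 and 367 at MET5. The medians were 0.24 for these genes and 0.04 for all.

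Sulfate assimilation brings sulfate into the cell's metabolism through activation, reduction and sulfite reduction. MET3, the ATP sulfurylase of its first step, had 50, 39, 16 and 21 reads in wild-type, upf1∆, rrp6∆ and double mutant cells at its main TSSC, lower in both strains without Rrp6. MET14, the kinase that follows, had 501, 519, 221 and 383. MET16, the next reductase, had 239, 332, 124 and 136, and MET5, the sulfite reductase β subunit, 235, 181, 116 and 111. The 11 TSSCs of the pathway had a median of -0.75, with 8 of 11 below wild-type. MET28 was also lower at its main TSSC, with 660, 661, 339 and 411, and STR3, a cystathionine lyase outside the name rule, had 473, 390, 185 and 274.

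In 2 of these genes an upstream TSSC moved the other way. MET5 had 82, 128, 251 and 319 reads at a TSSC 222 to 125 nt before the ATG, so that in rrp6∆ the far start held more reads than the near one, the reverse of wild-type. MET3 had 3, 6, 12 and 25 at a TSSC 241 to 176 nt before the ATG. The largest ratio was at LEU4, the main isopropylmalate synthase and first enzyme of leucine synthesis, whose upstream TSSC, 502 to 456 nt before the ATG, had 95, 167, 675 and 1374 reads, log2 ratios to wild-type of 0.81, 2.82 and 3.84. Its main TSSC had 311, 394, 405 and 479. In rrp6∆ and in upf1∆rrp6∆ the upstream start of LEU4 therefore exceeded the main one. Another LEU4 TSSC, between these, had at most 1 read.

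The LEU4 upstream transcript, read from the last base of its TSSC, holds 11 upstream ATGs, and the first of its short ORFs is shown with start and stop in capitals.
LEU4 (6 codons, chrXIV:427096-427116, minus strand): ATGtgtgtcatacttggcTGA

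**Figure D2:**
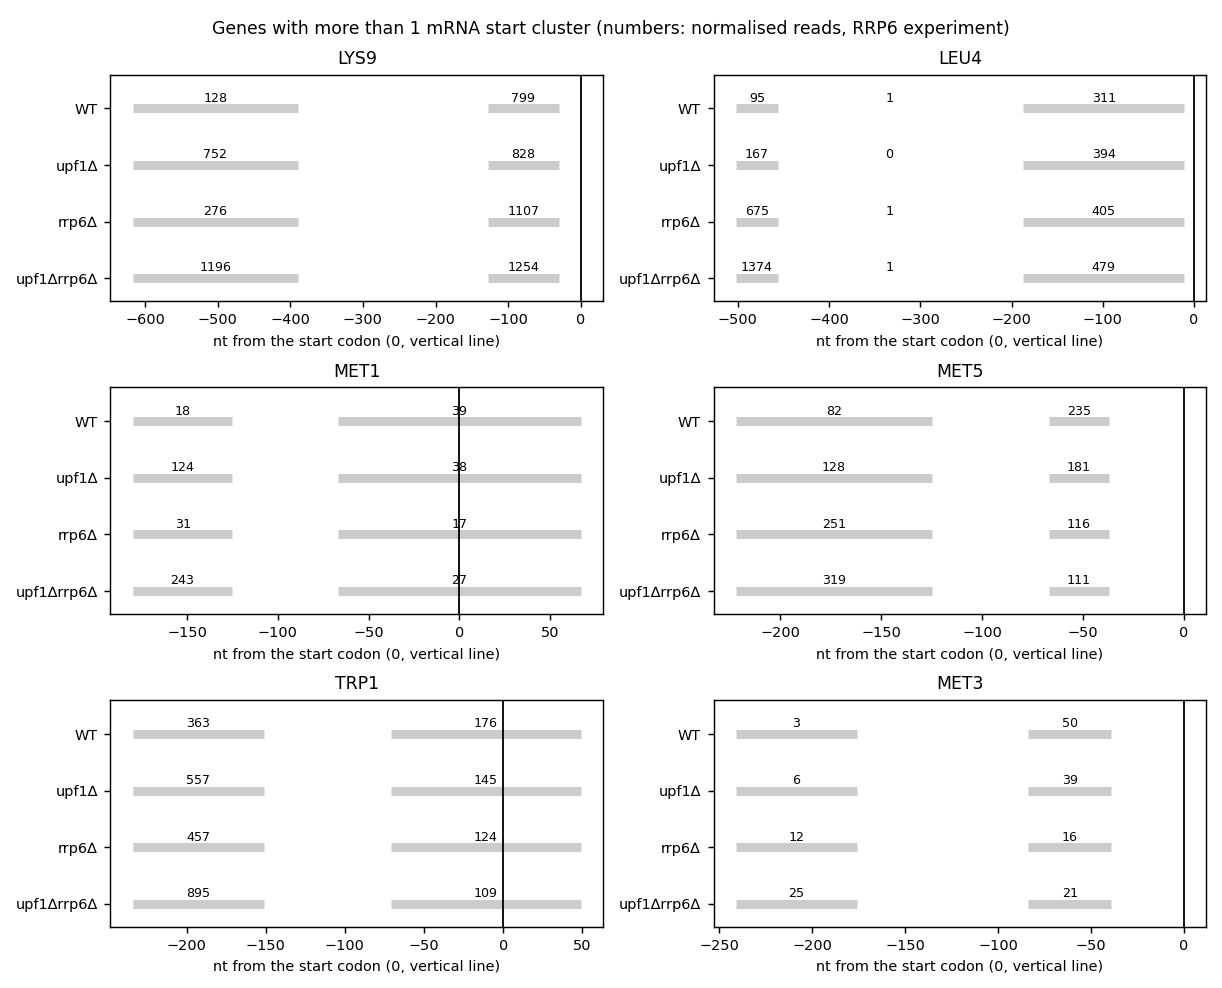
Positions of O-TSSCs (grey bars, in nt from the start codon, which is the vertical line at 0) of 6 genes with more than 1 O-TSSC, in the 4 genotypes of the RRP6 experiment, with the normalised reads printed above each bar. The far bar has more reads in upf1∆ at LYS9 (752) and MET1 (124), in rrp6∆ at LEU4 (675) and MET5 (251), and the most in upf1∆rrp6∆ in all 6 genes.

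Outside sulfur metabolism, most genes were level or slightly above wild-type in rrp6∆. ARG82, an inositol polyphosphate kinase needed for arginine control, had 146, 172, 338 and 487 reads in wild-type, upf1∆, rrp6∆ and double mutant cells. ARO10, a decarboxylase of aromatic breakdown, had 41, 56, 84 and 83, and the upstream TSSC of ARO9 19, 12, 45 and 16. Lysine enzymes had a median of 0.51 and histidine enzymes of -0.04.

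In the double mutant, 14 of 83 O-TSSCs were higher than in wild-type (18.6% of all O-TSSCs) and 4 lower (2.09% of all), with a median of 0.16 against 0.28 for all. The 4 lower were MET3 and MET5 at the main TSSC, ARG1 and LYS5. The far TSSCs of LEU4, MET1 (18, 124, 31 and 243) and LYS9 (128, 752, 276 and 1196) had the 3 highest ratios. Among other feedback-regulated first enzymes, LEU9, the second isopropylmalate synthase, was 1 of the 14 higher, with 237, 308, 423 and 502. ILV2, the acetolactate synthase, had 1764, 2299, 2958 and 3525, and HOM3, the aspartate kinase, 462, 559, 497 and 379, both within 2-fold of wild-type.

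Against rrp6∆, 7 of 83 were higher in the double mutant (14% of all) and 2 lower (0.489% of all), ARG1 and the upstream TSSC of ARO9. Against upf1∆, 5 were higher (5.3% of all) and 5 lower (2.85% of all). Of these last 5, 3 were arginine enzymes: ARG1 had 603, 862, 930 and 267 reads in wild-type, upf1∆, rrp6∆ and double mutant cells, ARG4 761, 1480, 1012 and 558, and ARG3 63, 148, 108 and 63. Each was above wild-type in both single mutants and back at or below it in the double mutant. The 6 arginine enzymes had a median of 0.72 in upf1∆ and 0.52 in rrp6∆ over wild-type, and of 0.05 in the double mutant. ARG5,6, outside the name rule, had 197, 251, 430 and 286, above wild-type in all 3 mutants. LYS5 (55, 102, 28 and 24) and MET16 were the other 2. The regulator ARG81 differed from the enzymes, with 38, 128, 63 and 259, and ARG80 had 119, 316, 120 and 247.

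The mRNAs of the arginine enzymes and of several sulfur genes were lower without Set2. In set2∆, 13 of 84 O-TSSCs (15.5%) were lower than in wild-type, where 1.14% of all O-TSSCs were, and 1 was higher, the upstream TSSC of TRP1, where 3.77% of all were. The median was -0.05 against 0.10 for all O-TSSCs. Of the 13, 4 were arginine enzymes (ARG1, ARG2, ARG3 and ARG8), 4 sulfate assimilation genes (MET3, MET5, MET14 and MET16), 1 was MET13 of methionine synthesis, 3 were regulators of sulfur genes (2 TSSCs of MET28 and 1 of MET32), and 1 was the internal TSSC of LEU1, with 3 and 0 reads. Taking away the median shift of all O-TSSCs (0.11) gave 14 lower.

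**Figure D3:**
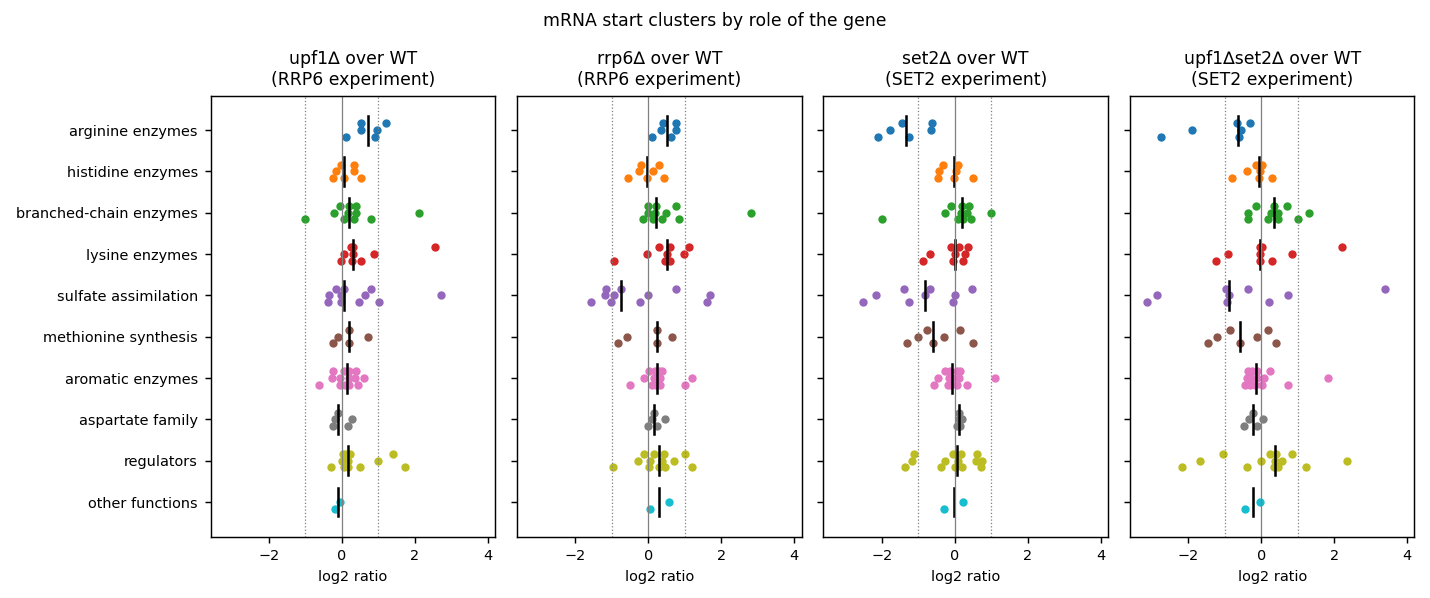
Log2 ratio to wild-type of each O-TSSC (points), grouped by the role of its gene, in upf1∆ and rrp6∆ (RRP6 experiment) and in set2∆ and upf1∆set2∆ (SET2 experiment), with the median of each group as a black bar and dotted lines at a 2-fold ratio. In set2∆ all 6 arginine enzymes lie below 0 with a median of -1.35 and sulfate assimilation has a median of -0.81, while histidine enzymes stay near 0.

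All 6 arginine enzymes were below wild-type in set2∆. ARG1 had 606, 1041, 178 and 161 reads in wild-type, upf1∆, set2∆ and upf1∆set2∆, and ARG3 80, 167, 18 and 11. ARG8 had 323, 607, 135 and 262. ARG4 (797, 1518, 518 and 523), ARG7 (52, 72, 33 and 35) and ARG2 (18, 31, 6 and 11) had lower values too. In all 6 the order was the same, with upf1∆ highest and both strains without Set2 below wild-type. The median of the pathway was -1.35 in set2∆ over wild-type, and in upf1∆set2∆ over upf1∆, a comparison that shares no library with it, the median was -1.48 and all 6 were past 2-fold. ARG5,6 had 182, 204, 38 and 80. The regulators of arginine genes did not share this order: ARG80 had 136, 368, 203 and 318, ARG81 29, 95, 24 and 152, and ARG82 104, 125, 171 and 186.

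**Figure D4:**
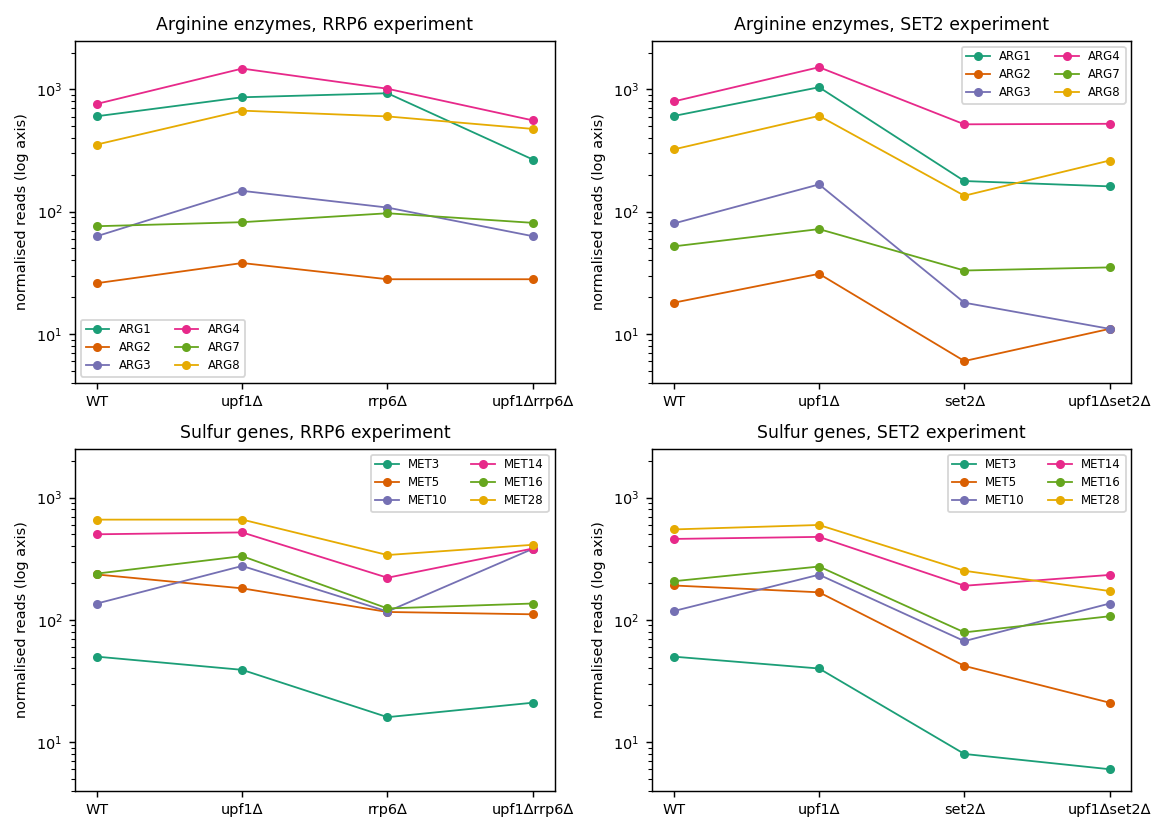
Normalised reads (log axis) of the main O-TSSC of 6 arginine enzymes (top) and 6 sulfur genes (bottom) in the 4 genotypes of the RRP6 experiment (left) and the SET2 experiment (right), 1 pooled value per point. ARG1 has 1041 in upf1∆ and 161 in upf1∆set2∆, and MET3 has 50 in wild-type and 8 in set2∆. Lines only join the points of a gene.

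Among the sulfur genes, the lowest ratios were at MET3 and MET5. MET3 had 50, 40, 8 and 6 reads in wild-type, upf1∆, set2∆ and upf1∆set2∆, and the main TSSC of MET5 191, 168, 42 and 21. MET14 had 459, 477, 190 and 233, and MET16 207, 273, 79 and 107. The main TSSCs of all 4 also had fewer reads in rrp6∆, MET16 by less than 2-fold, while the 2 TSSCs of MET5 together did not. The upstream TSSC of MET5 had 52, 78, 73 and 87, so that both mutants without Set2 had more reads there than at the main start.

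Further down the pathway, MET13, a methylenetetrahydrofolate reductase, had 281, 436, 113 and 101 reads, and MET6, the methionine synthase, 2346, 2685, 1372 and 1005. MET2, the homoserine acetyltransferase, had 251, 299, 203 and 138. The other genes of methionine synthesis with an mRNA start went the other way in set2∆, by less than 2-fold. MET12 had 138, 130, 196 and 158, and MET7 had 242, 201, 270 and 223. The regulators were split. MET28 had 549, 597, 252 and 172 at its main TSSC and MET32 63, 70, 24 and 30, while MET4, the activator itself, had 27, 23, 29 and 35, MET31 151, 204, 171 and 210, and MET30, the ubiquitin ligase subunit that inactivates Met4, 61, 62, 47 and 46. STR3 had 396, 334, 149 and 142.

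The remaining pathways were close to wild-type in set2∆. Histidine enzymes had a median of -0.02, lysine enzymes of 0, aromatic enzymes of -0.07 and branched-chain enzymes of 0.20. LYS1, the last lysine enzyme, was the lowest main TSSC outside arginine and sulfur, with 268, 383, 146 and 114. The first enzymes HIS1 (845, 869, 675 and 485), LYS20 (302, 392, 392 and 368), LYS21 (250, 302, 270 and 246), ARO3 (1151, 1340, 1240 and 1167), ARO4 (1501, 1559, 1643 and 1373), TRP2 (219, 249, 213 and 179), ILV1 (518, 442, 478 and 405) and HOM3 (468, 532, 506 and 338) all stayed within 2-fold of wild-type. TRP3, ARO7, LEU3 and LYS14 did so too. By promoter word within 250 bases, 6 of 39 O-TSSCs with TGACTC (15.4%) and 7 of 45 with none (15.6%) were lower in set2∆, where the shares over all O-TSSCs were 3.31% and 0.987%. This split depends on the window. Of the genes with none, ARG1, ARG3, LEU1 and MET13 held TGACTC within 500 bases, as did 13.1% of all ORFs. For TGTGGC they were 3 of 12 and 10 of 72, against 2.36% and 1.06% of all, and for CACGTG 2 of 11 and 11 of 73, against 3.05% and 1.09%. In upf1∆set2∆ over upf1∆, 10 of 39 with TGACTC and 8 of 45 with none were lower, against 5.85% and 1.87% of all. GCN4 had 3032, 4750, 3676 and 3910.

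In upf1∆set2∆, 10 of 84 O-TSSCs were lower than in wild-type (1.04% of all O-TSSCs) and 6 higher (16.2% of all), with a median of -0.12 against 0.17. Against upf1∆, 18 were lower (2.12% of all) and 0 higher (3.42% of all), with a median of -0.33 against 0.04. Beside the 6 arginine enzymes, these 18 held MET2, MET3, MET5, MET6, MET13, MET14, MET16, MET28 and MET32 and the lysine genes LYS1 and LYS2, and an internal TSSC of LEU4 with 4 and 1 reads. Against set2∆, 5 were higher (12.7% of all) and 0 lower (0.768% of all): the far TSSCs of LYS9 (92, 556, 92 and 432) and MET1 (5, 53, 5 and 62), ARG81, MET10 (118, 234, 67 and 136) and the internal TSSC of LEU1. At LYS9, MET1 and ARG81 the strains without Upf1 were thus the highest whether Set2 was present or not.

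Genes of mating type moved in the same strains and are given as measured. MFA1, the a-factor gene, had 2549, 1661, 1378 and 568 reads in wild-type, upf1∆, set2∆ and upf1∆set2∆, and MFA2 3498, 3037, 2643 and 1870. STE2 had 212, 156, 179 and 136 at its main TSSC and BAR1 412, 226, 291 and 169. The 4 genes of MAT a cells were thus expressed in every genotype. STE3, of MAT alpha cells, had 64, 117, 8 and 15 at its main TSSC, and MF(ALPHA)2 had 0, 0, 18 and 11 at a TSSC inside its ORF, while no TSSC was named MF(ALPHA)1. Their part in the arginine and sulfur values was not tested. Fewer cells with an mRNA and less mRNA per cell cannot be told apart in these bulk samples.

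Of 35 listed genes of amino acid metabolism outside the name rule, 34 had O-TSSCs. In set2∆ 2 of their 42 O-TSSCs were lower, ARG5,6 and STR3, and 1 was higher, with a median of -0.09. Of 16 O-TSSCs of amino acid permeases, 0 were higher and 0 lower, with a median of 0.32. In rrp6∆ 1 of the 40 O-TSSCs of the listed genes was lower and 3 higher.

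Antisense transcripts inside the genes were few and low in wild-type and had more reads in most mutants. The RRP6 experiment had 15 A-TSSCs in 12 genes, with a median of 1 read in wild-type and 16 in upf1∆rrp6∆. Of these, 7 were higher in upf1∆ (35.1% of all A-TSSCs), 9 in rrp6∆ (46.3%) and 14 in the double mutant (80.1%). Against rrp6∆ 11 were higher in the double mutant (49.5%) and against upf1∆ 10 (57.9%). These shares are close to those of all A-TSSCs or rest on few TSSCs.

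The antisense TSSCs with the most reads differed in which deletion gave the larger step. MET2 had 4, 53, 8 and 95 reads in wild-type, upf1∆, rrp6∆ and double mutant cells at a TSSC near the 3′ end of the ORF, and TRP1 15, 107, 39 and 168. In these 2 the larger step came with the loss of Upf1, although TRP1 was also more than 2-fold higher in rrp6∆. MET8, of siroheme synthesis, had 8, 8, 72 and 120, and MET28 5, 12, 46 and 95, with the larger step at the loss of Rrp6. MET28 was also more than 2-fold higher in upf1∆. LYS4, the homoaconitase, had 1, 13, 24 and 62, also higher in both.

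The SET2 experiment had 40 A-TSSCs in 24 genes, with a median of 0 reads in wild-type, 1 in set2∆ and 6 in upf1∆set2∆. Here 6 were higher in upf1∆ (25.9% of all A-TSSCs), 13 in set2∆ (38.8%) and 37 in the double mutant (82.8%). Against upf1∆ 29 were higher in the double mutant (64.1%) and against set2∆ 28 (61.4%). ARG2 had 0, 0, 12 and 33 reads in wild-type, upf1∆, set2∆ and upf1∆set2∆, ILV1, the threonine deaminase, 0, 0, 4 and 18, and MET10 0, 0, 0 and 17. At MET13 the values were 1, 4, 9 and 33. The 2 genes led by Upf1 in the first experiment did so here too, with 4, 49, 9 and 98 at MET2 and 9, 114, 10 and 69 at TRP1.

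Sense starts inside the ORFs were more numerous. The RRP6 experiment had 51 B-TSSCs in 32 genes, of which 24 were higher in upf1∆ (43.4% of all B-TSSCs), 3 in rrp6∆ (10.6%) and 21 in the double mutant (48.1%). Against rrp6∆ 23 were higher in the double mutant (43.1%) and against upf1∆ 3 (13.8%). The SET2 experiment had 100 in 53 genes, of which 27 were higher in upf1∆ (21.5%), 46 in set2∆ (51.9%) and 78 in the double mutant (78.4%), with 60 higher against upf1∆ (64.1%) and 42 against set2∆ (40.6%). Members and background thus differed little in these counts.

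The largest internal start of the RRP6 experiment was at ARO80, the activator of aromatic amino acid breakdown, whose own mRNA start had 13, 14, 12 and 10 reads. Its B-TSSC that begins 767 nt into the ORF had 15, 166, 46 and 704 reads in wild-type, upf1∆, rrp6∆ and double mutant cells, a log2 ratio of 5.46 in the double mutant. Reads from inside this gene therefore outnumbered those from its promoter. HIS5, the histidinol phosphate aminotransferase, had 25, 162, 31 and 211 at 234 nt, and MET30 39, 217, 41 and 276 at 375 nt, both with the step at the loss of Upf1 alone.

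In the SET2 experiment the same 3 genes were again led by Upf1, with 4, 58, 30 and 226 reads at ARO80, 23, 158, 35 and 208 at HIS5 and 34, 207, 42 and 187 at MET30. Other internal starts had more reads in set2∆ than in upf1∆. A second TSSC of ARO80, 1422 nt into the ORF, had 3, 9, 44 and 244, and one of MET30, at 1113 nt, 2, 6, 30 and 167. MET10 had 6, 5, 33 and 269 at 1635 nt and MET1 9, 27, 101 and 197 at 859 nt. At MET3 the internal start, 882 nt into the ORF, had 33, 59, 201 and 269, so that in set2∆ it outnumbered the main start of the gene, with 8 reads. ARG4 had 5, 14, 53 and 76 at 796 nt, ARG7 7, 19, 32 and 148 at 983 nt, and TRP3 1, 0, 30 and 31. In these genes internal reads were highest without Set2. The reads of the main start were below wild-type in both strains without Set2 at ARG4, ARG7, MET3, MET30 and TRP3. At MET10 they were so in set2∆ alone. Only MET3 was lower by more than 2-fold.

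**Figure D5:**
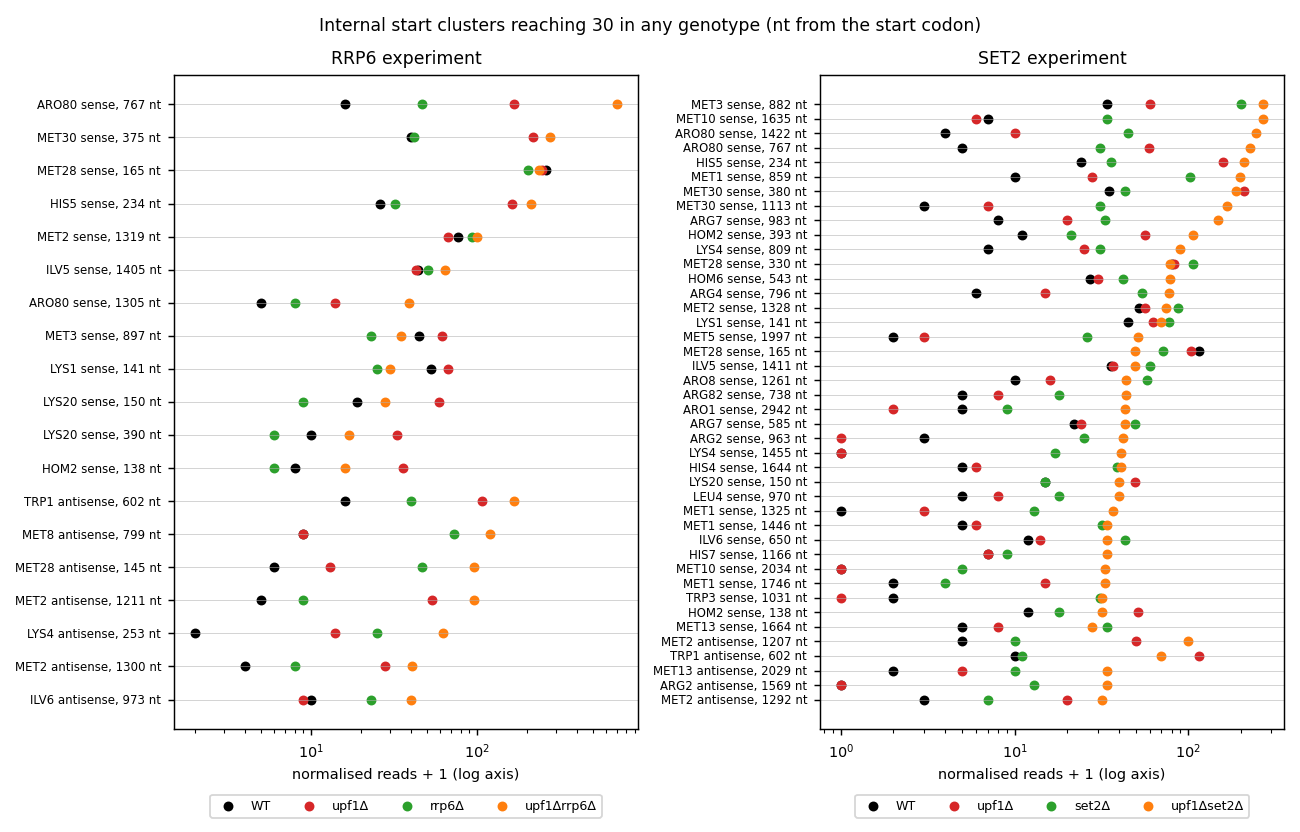
Normalised reads plus 1 (log axis) of the antisense and sense internal TSSCs of amino acid genes that reached 30 in any genotype, in the RRP6 experiment (left) and the SET2 experiment (right), with the distance of the TSSC from the start codon beside the gene name and 1 point per genotype. ARO80 reaches 704 in upf1∆rrp6∆, MET3 201 in set2∆ and MET10 269 in upf1∆set2∆, where wild-type has 15, 33 and 6. Coinciding points hide each other.

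An internal start leaves out the start codon, and the frame of the next ATG was read from the genome. Counted from the last base of the TSSC, this first ATG was out of frame in 35 of 51 B-TSSCs (68.6%, against 65.4% of all) in the RRP6 experiment, and 19 of these 35 were higher in upf1∆, beside 4 of 12 with an ATG in frame. Over all B-TSSCs of that experiment 51.9% and 24.2% were. In the SET2 experiment it was out of frame in 65 of 100 (65%, against 66.6% of all), with 17 higher (26.2%). Beside these, 9 of 31 in frame were higher (29.0%), where over all B-TSSCs 24.3% and 12.0% were. The order of the members depends on the base counted from. From the first base of the TSSC, 20 of 64 out of frame (31.25%) and 7 of 34 in frame (20.6%) were higher. That is the order of all B-TSSCs (24.2% and 12.2%). With each ORF cut into 3 equal parts, 16 of 25 B-TSSCs of the 5′ part were higher in upf1∆ in the RRP6 experiment, 7 of 17 of the middle and 1 of 6 of the 3′ part, and in the SET2 experiment 13 of 29, 11 of 37 and 3 of 32. The order was the same over all B-TSSCs, with 55.3%, 41.8% and 31.1%, then 41.6%, 18.6% and 11.4%. The first ATG after the starts of ARO80 and MET30 is out of frame. That of HIS5 is in frame from the last base of the TSSC and out of frame, with an ORF of 37 codons, from its first base.
ARO80 (first ATG 892 nt into the ORF, RRP6 experiment, chrIV:1312920-1312946, plus strand): taggattagacaATGgagaagatggga
MET30 (442 nt into the ORF, chrIX:269081-269107, plus strand): acagcaattccaATGacaagatacgga
HIS5 (369 nt into the ORF, chrIX:143285-143311, plus strand): ccaacatattctATGtactctgtttgt

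Start clusters of other classes near these genes, within 500 nt upstream of the ORF or inside it, were counted in the double mutants. In the RRP6 experiment, 21 of 22 divergent cryptic unstable transcripts (CUTs), which start in the promoter and run away from the gene, were more than 2-fold higher in upf1∆rrp6∆ than in wild-type, where 92.1% of all CUTs were. Of divergent TSSCs with no class 15 of 20 were higher (70.9% of all TSSCs with no class), and of antisense Xrn1-sensitive transcripts (XUTs) inside ORFs 11 of 12 (77.1% of all XUTs). In the SET2 experiment 6 of 12 divergent CUTs (52% of all CUTs), 4 of 9 divergent TSSCs with no class (55.5%) and 6 of 8 antisense XUTs (68.8%) were higher in upf1∆set2∆. The counts were near the shares of the whole classes or rest on few TSSCs.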

How the data were processed

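Libraries of 5′-ends from 8 groups (3 per genotype, 4 genotypes in each of 2 experiments) were used; the other samples of the series were not analysed here. The authors aligned reads with bowtie to S288C R64, removed duplicates by a random tag, grouped 5′-ends into TSSCs and normalised them with DESeq2 through SARTools. Their deposited score values are whole numbers, 1 for each genotype, inferred to be the mean of its 3 libraries. Columns with the authors' own fold changes (log2) and significance values for each contrast were left aside.

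The members and lists were chosen with earlier results of these data known. The design named a count test for values per library, which pooled values do not allow, so log2 ratios with a pseudocount of 1, counts past 2-fold and medians were taken over all TSSCs of a class. The ratio and the 2-fold call were tried on simulated O-TSSCs, with larger changes planted in well filled ones and counting noise alone. Changes near 2-fold, A- and B-TSSCs and variation between libraries were not simulated. Overlap between tables was at least 1 nt on the same strand. Named were, per contrast, the 5 highest and 5 lowest O-TSSCs with a mean of at least 20, the 5 highest A- and B-TSSCs with a value of at least 10, feedback-regulated enzymes, regulators, marker and deleted genes, upstream ATG genes higher in both tables and the 10 most abundant. Other genes were named after their values were seen. ORFs, ATGs and promoter words (250 bases) were read from the R64 RefSeq genome, in Python 3.11.15 with pandas 2.3.3 and numpy 2.4.6. Alternatives were a pseudocount of 0.1, a mean of at least 10, centring on all O-TSSCs, sums per gene, an overlap of 50%, ATGs from the first base of a TSSC, TGACTCA in place of TGACTC and, chosen after seeing the data, 500 bases of promoter.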

Additional observations from a re-analysis of the deposited data

Results flagged for a closer look

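Start clusters near these genes that the classes O, A and B leave out were looked through within 500 nt upstream of the ORF or inside it, and 19 of them had at least 100 reads in the double mutant and at least 4 times the wild-type value. Of these, 15 were in the RRP6 experiment, and most were cryptic unstable transcripts (CUTs) that start in the promoter and run away from the gene. Values follow in the order wild-type, upf1∆, single mutant, double mutant.

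At the branched-chain genes the divergent CUT had 12, 25, 486 and 698 reads at ILV3 and 12, 17, 420 and 544 at ILV5. LEU9 had 25, 242, 202 and 1015 in the RRP6 experiment and 17, 211, 12 and 170 in the SET2 experiment, where set2∆ was not above wild-type. LYS2 had 29, 155, 244 and 859 and then 13, 93, 17 and 108.

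Among the aromatic genes, the divergent CUT had 19, 85, 361 and 592 reads at ARO1 and 0, 5, 53 and 101 at ARO7. ARO10 had 77, 350, 208 and 666 in the RRP6 experiment and 60, 289, 133 and 532 in the SET2 experiment. A divergent TSSC with no class of its own had 86, 95, 718 and 774 at TRP3.

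Other lysine genes had a divergent CUT with 1, 4, 123 and 142 reads (LYS12) and 33, 89, 74 and 176 (LYS14). LYS9 had an unassigned divergent TSSC with 1, 1, 86 and 103, and LYS20 a CUT in the sense direction upstream with 2, 12, 42 and 114. At LYS1 an antisense Xrn1-sensitive transcript (XUT) of the SET2 experiment had 3, 26, 18 and 175.

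HOM2 had 2 divergent CUTs, with 1, 1, 120 and 131 and with 7, 9, 57 and 149 reads. MET14 had 20, 14, 251 and 331, while its mRNA was lower in rrp6∆. No test was made on these values.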

How the results depend on the processing

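No paired analysis was possible because the tables hold 1 pooled value per genotype and no replicate numbers; for the same reason no library could be left out. Of 251 values recomputed under an alternative, 170 stayed within the margin set (1.5 times for a count) and 81 moved. For these the cause was not tested beyond what each setting does by construction. A mean of at least 10 keeps fewer TSSCs, and a pseudocount of 0.1 gives larger ratios at low reads. In set2∆, 10 to 14 O-TSSCs were lower than in wild-type under every alternative run, against 13. In the lists below R is the RRP6 and S the SET2 experiment.

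With a mean of at least 10, which kept few A- and B-TSSCs, A-TSSCs higher numbered, in R, 3 in upf1∆, 5 in rrp6∆ and 7 in the double mutant over wild-type, 7 over rrp6∆ and 4 over upf1∆, and in S, 3 in upf1∆, 2 in set2∆ and 7 in the double mutant over wild-type, 4 over upf1∆ and 9 over set2∆. B-TSSCs higher numbered, in R, 10, 1, 7 and, over rrp6∆, 10, and in S 12, 21, 40, 31 over upf1∆ and 26 over set2∆. A medians were 2.81 (upf1∆), 2.97 (rrp6∆) and 3.75 (double) in R, and 3.32, 1.35, 3.42, 1.10 (over upf1∆) and 1.42 (over set2∆) in S. B medians were 0.64 (double over wild-type) and 1.42 (over rrp6∆) in R, and 1.06, 1.95, 3.00 and 1.70 (over upf1∆) in S. The O-TSSC lower in upf1∆ in S was lost (0).

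With a pseudocount of 0.1, A medians were 0.93 (upf1∆), 2.21 (rrp6∆), 4.22 (double), 1.76 (over rrp6∆) and 2.85 (over upf1∆) in R, and 1.52 (set2∆), 4.75 (double), 4.39 (over upf1∆) and 2.13 (over set2∆) in S. B medians were 1.68 (upf1∆) and 1.28 (double over rrp6∆) in R, and 1.89 (set2∆), 3.43 (double) and 1.89 (over upf1∆) in S. A-TSSCs higher were 10 in upf1∆ and 24 in set2∆ in S, B-TSSCs higher 6 in rrp6∆ and 6 in the double mutant over upf1∆ in R. O-TSSCs numbered 1 lower in upf1∆ in R, 2 higher in set2∆ and 1 lower in upf1∆set2∆ over set2∆.

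Relative to the median of all O-TSSCs, the O medians of the double mutants were -0.10 over wild-type and -0.11 over rrp6∆ in R, both turned from positive, and -0.28 over wild-type in S. A medians were 2.74 and 1.17 (over rrp6∆) in R and 2.16 in S, B medians 0.74 and 0.84 in R and 2.11 in S. O-TSSCs numbered 1 lower in upf1∆ in R, 0 higher in set2∆ and 1 lower in upf1∆set2∆ over set2∆.

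Summed per gene, the higher numbered 3 in rrp6∆, 9 in the double mutant, 4 over rrp6∆ and 3 over upf1∆ in R, and 5 in upf1∆, 0 in set2∆ and 3 in the double mutant over set2∆ in S, and the lower 1 in rrp6∆, 2 in the double mutant and 1 over rrp6∆ in R and 0 in upf1∆ in S. Counted from the first base of a TSSC, 38 and 39 O-TSSCs had an upstream ATG, and TGACTCA stood in 29.7% of promoters. With 500 bases, chosen after seeing the data, TGACTC stood in 56.8%. Values under about 10 reads limit the A and B ratios most.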
